A study of Homo sapiens with 5 samples.

Results

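Metallothioneins are small cysteine-rich proteins, and the 8 genes described here, MT2A, MT1A, MT1E, MT1F, MT1G, MT1H, MT1M and MT1X, were taken by their symbols from the 27189 genes listed in each library. All 8 symbols were found. RNA-seq had been performed on HT1080 cells, a human fibrosarcoma line, embedded in type I collagen at 2 mg per ml and kept for 24 h. Cells seeded at 10 cells per cubic mm were left untreated (LD) or received recombinant IL-6 (IL-6), recombinant IL-8 (IL-8) or both interleukins at a ratio of 5 to 2 (RM). Cells seeded at 50 cells per cubic mm without added cytokine gave the high-density library (HD). Each of the 5 conditions was sequenced as 1 library, so no difference below has a replicate check and no test of one condition against another was made. Where 5 values are listed together, they begin with untreated LD and follow with IL-6, then IL-8, then RM and last HD.

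Metallothioneins bind zinc and copper, and also cadmium, through clusters of cysteine thiolates, and so buffer metal ions and scavenge oxidants. Zinc releases the transcription factor MTF1 onto metal response elements in their promoters, and glucocorticoids and IL-6 acting through STAT3 are known inducers as well, MT2A being a classical acute-phase gene of the liver. In humans the functional genes lie side by side on chromosome 16 among pseudogenes. In RefSeq order the members run MT2A, MT1E, MT1M, MT1A, MT1F, MT1G, MT1H and MT1X. MT2A is the sole human gene of the MT-2 isoform and is broadly expressed, while the MT1 genes encode closely related isoforms.

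The libraries held 926376 reads in HD and 5096134 to 7118545 reads in the others. The ribosomal gene RNA5-8S5 held 51.5% of HD reads and 76.9% to 79.6% elsewhere, and read shares below are given per 1000000 reads outside it (CPM). Levels are TPM, which is corrected for transcript length and was rescaled to 1000000 per library. HD stood apart from the rest: it was the shallowest library but had reads on the most genes, 20113 against 13469 to 15080. The 12 mesenchymal marker genes summed to 1193 TPM in HD and 5435 to 8495 TPM in the low-density libraries. All 7 epithelial markers in the files reached 1 TPM in HD, where none was without reads, against 1 or 2 of them at low density, where EPCAM, CLDN7 and ESRP1 had no reads in any library. The 8 leukocyte markers likewise all had reads in HD (summed level 296 TPM, against 157 to 177 TPM at low density, where CD14, CD3E and TYROBP were among those with none). The part these differences play in the HD values below was not tested, and no value of the density comparison can be had without HD. In these bulk lysates, fewer cells with a transcript and less of it per cell cannot be told apart.

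Metallothionein RNA in HT1080 cells came almost wholly from MT2A and MT1E, with a smaller amount from MT1X. MT2A, the broadly expressed isoform, had 680, 455, 503, 731 and 69 reads. Its level was 1474, 1435, 1462, 1637 and 870.3 TPM, which placed it at rank 67 of all genes in LD and 97 in HD. MT2A was thus among the most abundant transcripts in all 5 libraries, lowest in HD and highest in RM. MT1E had 832, 394, 598, 1077 and 20 reads. The corresponding levels of MT1E were 1414, 975, 1366, 1892 and 175 TPM, and its rank among all genes moved from 50 in RM to 629 in HD. MT1E therefore spanned a wider range than MT2A, being the higher of the pair by TPM in RM and far the lower in HD. MT1X had 68, 38, 37, 56 and 2 reads, or 153, 123, 113, 129 and 26.9 TPM. MT1X was thus the least of the 3 in each library.

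**Figure D1:**
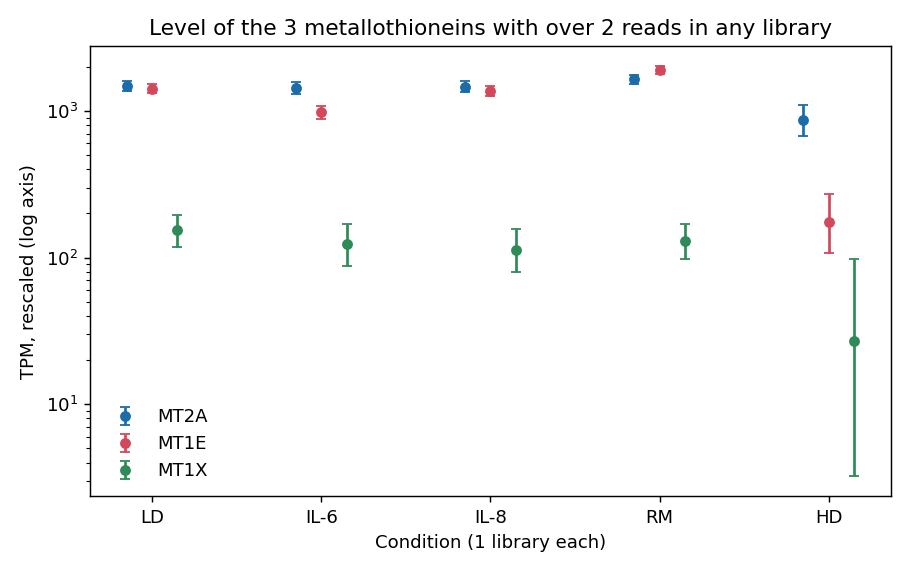
TPM on a log axis of MT2A, MT1E and MT1X in the 5 libraries, with exact 95% Poisson intervals of the read count scaled to TPM. MT2A stays between 870.3 and 1637 TPM, whereas MT1E falls from 1892 TPM in RM to 175 TPM in HD and MT1X in HD rests on 2 reads.

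The other 5 members had at most 1 read in all. MT1A, MT1F and MT1H were without reads throughout. A count of 0, taken as a limit of 3 reads, allows up to 1.82, 2.72, 2.68, 2.09 and 6.67 CPM. MT1G had 1 read, in LD, and MT1M had 1 read, in IL-6. The first 3 genes were thus not detectable at this depth and the other two were at the edge of detection, whereas MT1E had 506 CPM in LD. Each limit or interval on reads covers counting error only, as reads of amplified cDNA are not independent molecules.

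Short reads can be shared between such similar genes, and this was checked in windows of 50 bases on the transcripts of GENCODE 29, which may differ from the annotation behind the counts. Of these windows, 4.88% in transcript MT2A-201 and 5.34% in MT1E-201 occurred in another gene as well. The share was 45.1% in MT1X-201, where 14.7% of its windows were shared with other members and the rest with entries such as MT1XP1 and AC026461.1. It was 20.2% in MT1G-201 and 20.4% in MT1H-201. Values of MT2A and MT1E thus rest largely on sequence of their own, while the value of MT1X is uncertain in how its shared reads were assigned.

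The promoters of 3 members were in the RefSeq sequences used here (GRCh38.p14). They are printed because MT2A and MT1X were measured in all libraries whereas MT1H had no read in any. The MT2A stretch is chr16:56608334-56608583, that of MT1X is chr16:56682220-56682469 and that of MT1H is chr16:56669564-56669813. All 3 lie on the plus strand, each giving the 250 bases that end just before the transcription start, 5′ to 3′, and capitals mark the core of the metal response element, TGCACNC or TGCGCNC, on either strand:
MT2A: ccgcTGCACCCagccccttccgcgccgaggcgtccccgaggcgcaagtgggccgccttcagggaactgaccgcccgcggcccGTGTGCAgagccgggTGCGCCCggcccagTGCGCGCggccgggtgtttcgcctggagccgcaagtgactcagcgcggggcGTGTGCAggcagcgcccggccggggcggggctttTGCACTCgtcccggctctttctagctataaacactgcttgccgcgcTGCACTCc
MT1X: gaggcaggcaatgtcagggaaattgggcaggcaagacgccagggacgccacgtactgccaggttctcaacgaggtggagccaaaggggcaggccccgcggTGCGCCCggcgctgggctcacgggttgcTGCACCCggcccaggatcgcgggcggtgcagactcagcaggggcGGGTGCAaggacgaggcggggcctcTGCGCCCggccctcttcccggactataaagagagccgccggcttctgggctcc
MT1H: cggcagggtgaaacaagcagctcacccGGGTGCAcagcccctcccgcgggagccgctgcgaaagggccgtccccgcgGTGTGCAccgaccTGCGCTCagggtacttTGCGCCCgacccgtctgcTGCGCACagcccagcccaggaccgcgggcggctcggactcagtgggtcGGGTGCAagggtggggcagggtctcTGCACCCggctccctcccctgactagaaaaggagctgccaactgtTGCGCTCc

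The MT2A promoter held 7 such cores, MT1X held 4 and MT1H held 8, none overlapping another. At least 1 core was present in 24.8% of the 35116 promoters in windows of the same length, while 7 or more were found in 0.0228%, 4 or more in 0.208% and 8 or more in 0.0142%. MT1H, which had no reads, thus held at least as many of these cores as the other 2. A TATAAA box lay 29 to 24 bases before the start in MT2A and 30 to 25 bases before it in MT1X, and none was found in the MT1H window (10.7% of all promoters hold one on either strand). The MT2A window also held TGACTCA, the letters of an AP-1 site, 104 to 98 bases before the start (4.20% of promoters), and TTCNNNGAA, the letters bound by STAT factors, 194 to 186 bases before it (6.57% of promoters). Neither was found in the MT1X or MT1H window. Such matches describe the sequence and do not show binding.

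The 8 members were summed in each library, which removes the question of how reads are divided between them. It does not settle reads shared with entries outside the 8. Of the windows in MT1E-201, 5.34% were shared with any other gene but 0.458% with members. The sum was 1581, 888, 1138, 1864 and 91 reads, or 3041, 2536, 2940, 3658 and 1072 TPM. Metallothioneins were therefore 0.304% of all TPM in LD, 0.366% in RM and 0.107% in HD. MT2A made up 43.0, 51.2, 44.2, 39.2 and 75.8% of the family's reads, with an exact 95% binomial interval of 40.6 to 45.5% in LD and of 65.7 to 84.2% in HD. MT1E made up 52.6, 44.4, 52.5, 57.8 and 22.0%, with an interval of 14.0 to 31.9% in HD. MT1X made up between 2.20% and 4.30%. The balance of the 2 main genes thus shifted toward MT1E in RM and toward MT2A in IL-6 and, most of all, HD.

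**Figure D2:**
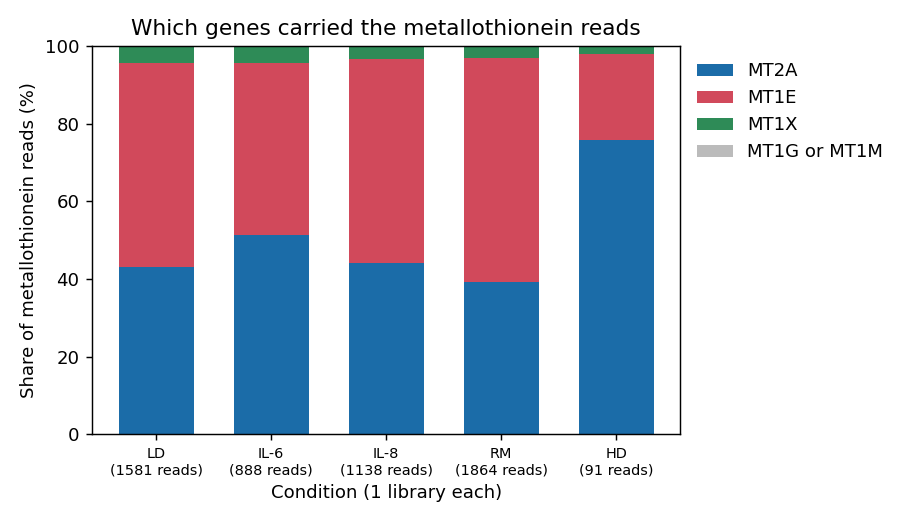
Share (%) of the summed metallothionein reads carried by MT2A, MT1E, MT1X and the single reads of MT1G or MT1M in each library, with the family's reads below each bar. MT2A holds 39.2% to 51.2% at low density and 75.8% in HD.

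Each interleukin alone was compared with LD first, and these and the next comparisons with LD share that 1 library. After IL-6, MT2A was level with LD, at 413 CPM in both, a ratio of 1.00 (95% exact interval 0.886 to 1.13). MT1E was lower, at 358 against 506 CPM, a ratio of 0.708 (0.626 to 0.799) or -0.54 on the log2(TPM + 1) scale, on which low values are compressed. For MT1X the ratio was 0.835 (0.546 to 1.26), and for the sum of the 8 members 0.839 (0.772 to 0.912). A member was counted as changed when it differed by at least 1 log2 unit on that scale. Of the 8 members, 4 had at least 1 TPM in some library, and 1 of these passed this limit after IL-6, against 17.3% of all 21163 genes past the same filter. It was MT1M, on a single read, and it passed the filter only through this library, so no metallothionein with more than 1 read passed the limit after IL-6.

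After IL-8, none of the 4 members passed 1 log2 unit, against 24.4% of all genes. MT2A had 449 CPM, 1.09 times LD (0.966 to 1.22), and MT1E had 534 CPM, 1.06 times LD (0.949 to 1.17). MT1X had a ratio of 0.799 (0.520 to 1.21). The summed family had a ratio of 1.06 (0.979 to 1.14). All of these intervals include 1, and by TPM MT2A and MT1E differed from LD by -0.01 and -0.05 log2 units, so their direction flips between the scales, as does that of MT1X, which went from -0.44 by TPM to 0.02 with median-ratio scaling. Among the 7368 genes with at least 20 reads in LD, the median difference between IL-8 and LD was -0.49 log2 units, and MT2A and MT1E were above 70.4% and 69.0% of these genes. Here and below, this set was chosen by its reads in LD, which can draw its differences from LD downward. Over all genes past the filter the median between IL-8 and LD was 0.

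With both interleukins (RM), MT1E and MT2A reached their highest levels of the 5 conditions, but the difference from LD stayed below the limit. MT1E had 751 CPM, 1.49 times LD (1.36 to 1.63), a difference of 0.42 log2 units. MT2A had 510 CPM, 1.23 times LD (1.11 to 1.37), a difference of 0.15 log2 units. MT1X was 0.945 times LD (0.651 to 1.37). The summed family was 1.35 times LD (1.26 to 1.45). None of the 4 members past the filter passed 1 log2 unit, against 26.8% of all genes. RM was higher than LD for MT1E and MT2A by TPM, by CPM and by median-ratio scaling, but to a different extent. Scaling read counts by the median ratio of genes, which lifts every RM value by 0.60 log2 units relative to LD when compared with CPM, gave 1.17 for MT1E and 0.90 for MT2A, and turned MT1X from -0.24 to 0.51. Among the genes with at least 20 reads in LD the median difference was -0.67, and MT1E was above 85.5% of them.

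RM was also set against each interleukin alone. Relative to IL-6, MT1E was higher in RM, with 2.10 times its read share (1.87 to 2.36), a difference of 0.96 log2 units, short of the limit by TPM but past it by CPM (1.07) and with median-ratio scaling (1.72), and MT2A had 1.23 times its read share (1.10 to 1.39). By TPM the 1 member counted between these libraries, against 29.0% of all genes, was again MT1M with its single read in IL-6, whereas by CPM and with median-ratio scaling it was MT1E, and MT1M was at -0.93 and -0.80. Relative to IL-8, MT1E had 1.41 times its read share in RM (1.27 to 1.56) and MT2A had 1.14 times (1.01 to 1.27), and none of the 4 members was counted, against 24.8% of all genes. MT1X ratios were 1.13 (0.736 to 1.76) and 1.18 (0.767 to 1.84), with intervals that include 1 in both cases.

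**Figure D3:**
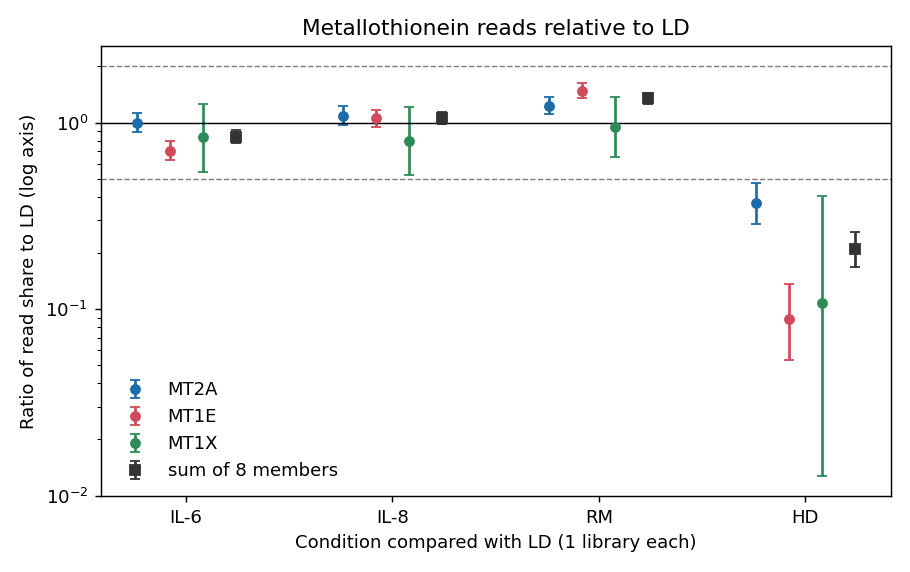
Ratio of read share (CPM) to LD on a log axis for MT2A, MT1E, MT1X and the sum of the 8 members, with exact 95% intervals for counting error, dashed lines at ratios of 0.5 and 2. The RM points of MT2A, MT1E and the sum lie between 1.23 and 1.49, and every HD point lies below 0.5.

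The HD library held the lowest metallothionein values. MT1E fell from 1414 TPM in LD to 175 TPM in HD, a difference of -3.01 log2 units, and its read share was 0.0880 times that of LD (0.0535 to 0.137). MT1X went from 153 to 26.9 TPM, a difference of -2.47, with a ratio of 0.108 (0.0128 to 0.404) on 2 reads. These were 2 of the 4 members past the filter, and no member was higher. In the background, 79.7% of all genes passed 1 log2 unit in either direction, and 17.9% were lower. Among the genes with at least 20 reads in LD, as MT1E and MT1X had, 43.1% were lower, and MT1E lay above 8.90% and MT1X above 14.8% of them. MT2A differed by -0.76 log2 units, within the limit and near the median of these genes (-0.69). Passing the limit depended on the scale: by read share MT2A was 0.371 times LD (0.286 to 0.476), or -1.42 log2 units, beyond the limit. By read share the median of these genes was -1.35, so MT2A lay near the median on that scale too. The summed family was 0.353 times LD in TPM and 0.211 times LD in read share (0.169 to 0.260). MT2A, MT1E, MT1X and the sum were lower in HD than in LD by TPM, by CPM and by median-ratio scaling.

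**Figure D4:**
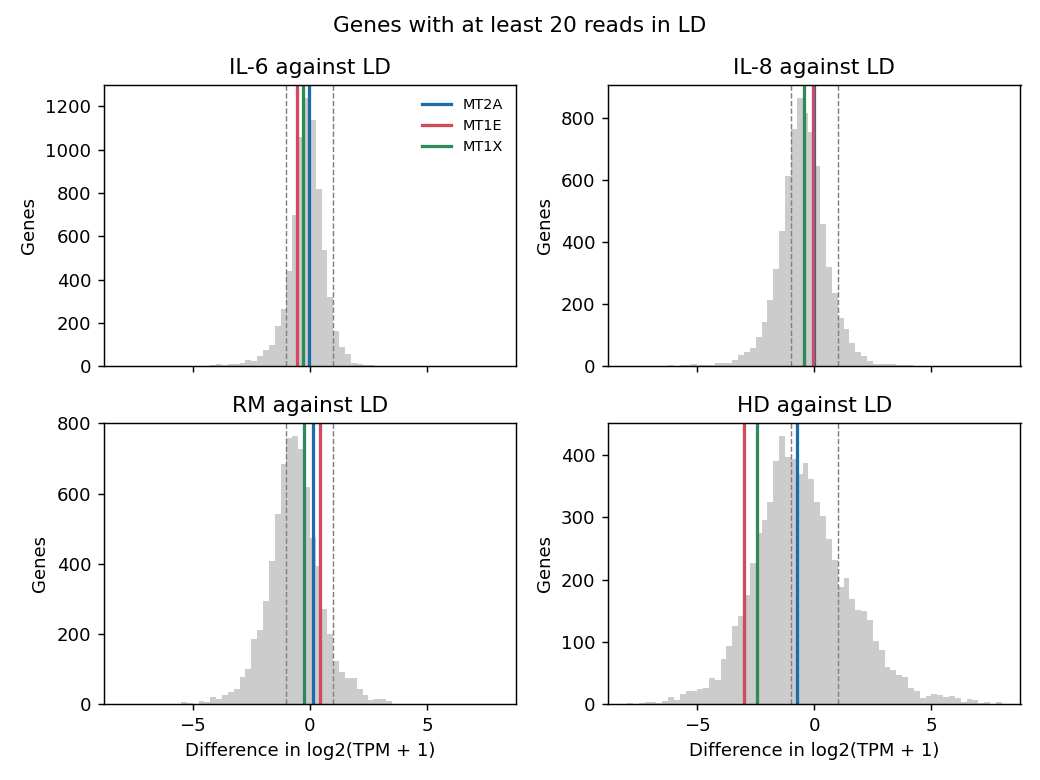
Histograms of the difference in log2(TPM + 1) from LD over the 7368 genes with at least 20 reads in LD, with MT2A, MT1E and MT1X as lines, dashed lines at 1 log2 unit either way and values past 8 set at the edge. In RM all 3 lines lie to the right of the median of -0.67, and in HD the lines of MT1E and MT1X lie in the left flank.

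The ratio of MT1E to MT2A needs no scaling between libraries, as both genes are read in the same one. There were 1.22 MT1E reads per MT2A read in LD (95% exact interval 1.10 to 1.36) and 1.47 in RM (1.34 to 1.62). The value with IL-8 was 1.19 (1.05 to 1.34), that with IL-6 was 0.866 (0.755 to 0.993), and HD had 0.290 (0.167 to 0.483). Relative to LD, the odds of a read being MT1E rather than MT2A were 0.237 times as high in HD (0.135 to 0.400) and 0.708 times as high in IL-6 (0.596 to 0.841). They were 1.20 times as high in RM (1.05 to 1.39) and 0.972 times as high in IL-8 (0.829 to 1.14). RM and IL-6 differed most among the low-density libraries, by an odds ratio of 1.70 (1.44 to 2.01). In HD, IL-6 and RM the 2 genes therefore moved unequally beyond counting error, whereas the IL-8 interval includes no change. The ratio of MT1X to MT2A lay between 0.0736 and 0.10 at low density and was 0.0290 in HD (0.00344 to 0.109), and none of its intervals against LD excluded 1.

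**Figure D5:**
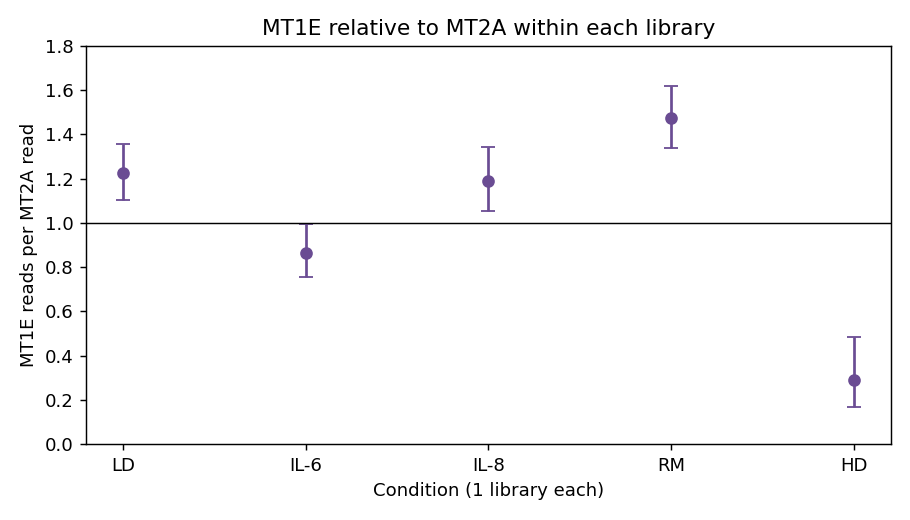
MT1E reads per MT2A read in each library with exact 95% intervals, the line marking equal reads. The value is 1.47 in RM, 0.866 in IL-6 and 0.290 in HD.

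Ordered by TPM, both MT2A and MT1E ran RM, LD, IL-8, IL-6 and HD. For MT2A, LD, IL-8 and IL-6 could not be separated by their read shares, while RM lay above LD and HD below IL-6. For MT1E only LD and IL-8 could not be separated. For MT1X the order was LD, RM, IL-6, IL-8 and HD, and no pair of neighbours could be separated except IL-8 and HD (7.42 times, 1.91 to 63.6).

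MT1E had the most reads in LD of the 8 members, and the genes most like it in their 4 differences from LD were sought among 7367 others. By Euclidean distance in log2 units the nearest 4 were LSM4 (0.17), an RNA-binding protein of the spliceosome, MTCH1 (0.34), a mitochondrial membrane protein, TMUB1 (0.40) and MKNK2 (0.44), a kinase of the translation factor eIF4E. LSM4 had 177, 86, 137, 236 and 3 reads. MTCH1 had 632, 272, 449, 1012 and 12 reads. All 4, like MT1E, were highest in RM and lowest in HD by TPM, with 3 to 12 reads in HD. They were chosen for likeness in these same differences, so this match is no separate result. MT1X stood at rank 139 by this distance (0.96) and MT2A at rank 1999 (2.32).

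Of the 8 other metallothionein entries looked up, 7 were in the files. MT1B and MT4 had no read in any library, and MT3, the brain isoform, and the pseudogene MT1L each had 1 read, in HD. The pseudogene MT1DP had 2 reads, in HD only. The pseudogene MT1JP had 0, 4, 3, 2 and 7 reads. The pseudogene MT1IP had 4, 2, 0, 1 and 10 reads. These 5 entries thus had few reads, at most 10 in a library, with the highest count in HD. MT3, MT1L and MT1DP passed the filter only through HD, and 13091 of all 21163 genes past it were counted as higher in HD than in LD, so nothing particular to these entries can be read from that. MT1JP also shares 50-base windows with MT1E-201.

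Genes that supply, move or sense zinc and copper were described from a list of 23, all of which passed the filter. These lists were counted by TPM. Of the 23, 4 were higher and 1 lower than LD after IL-6, 5 and 4 after IL-8, 1 and 4 in RM, and 11 and 6 in HD. In either direction this is 5, 9, 5 and 17 of 23, beside 17.3, 24.4, 26.8 and 79.7% of all genes. The median differences were 0.31, 0.10, -0.74 and 0.69 log2 units, against 0 over all genes in the first 3 comparisons and 1.86 in HD. Over the 15 of the 23 with at least 20 reads in LD they were 0.22, -0.15, -0.76 and -0.04, beside -0.10, -0.49, -0.67 and -0.69 for all such genes, so the RM median lay near that of its background. MTF1, the metal-sensing activator of metallothionein genes, had 77, 63, 62, 132 and 41 reads. Its level was 6.70 TPM in LD, 12.0 TPM in RM, a difference of 0.75 log2 units, and 20.8 TPM in HD, which was 1.50 above LD. By read share MTF1 had 92.0 CPM in RM and 91.2 CPM in HD. With median-ratio scaling it was 1.55 above LD in RM and 1.16 above LD in HD. MTF1 was thus higher than LD both in HD, where MT1E was lower, and in RM, where MT1E was highest. Any link between the 2 genes was not tested. SLC30A1, a zinc exporter and MTF1 target, had only 8, 11, 23, 1 and 5 reads, or 2.89, 5.79, 11.2, 0.378 and 10.7 TPM. It was lowest in RM, where MT1E was highest. SLC39A14, a zinc importer known to respond to IL-6, had 19.0, 15.4, 6.68, 10.5 and 18.5 TPM, lowest with IL-8. The importers SLC39A1 and SLC39A13 had 65.7 and 50.4 TPM in LD. In HD they differed by -1.50 and -2.15 log2 units, on 12 and 7 reads. Among the 11 genes counted as higher in HD were ATP7A, SLC31A1 and SLC30A5, named after their values were seen. They were 4.38, 3.08 and 3.01 log2 units above LD, on 114, 86 and 51 reads in HD. The only gene of the list counted as higher in RM was CCS, the copper chaperone of superoxide dismutase, which was singled out after its values were seen. CCS had 4, 16, 20, 103 and 5 reads, and its 79.0 TPM in RM was 4.62 log2 units above LD. The gene counted as lower after IL-6 was SLC39A10, a zinc importer, with 46 reads in LD and 8 after IL-6, and it too was named after its values were seen.

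Of 8 genes that respond to metals or oxidants, none passed 1 log2 unit after IL-6, 4 were lower with IL-8, 2 were lower in RM, and in HD 4 were lower and 3 higher. In either direction this is 0, 4, 2 and 7 of 8, beside the same 17.3, 24.4, 26.8 and 79.7% of all genes. The median differences were 0.02, -1.11, -0.79 and -1.57 log2 units. Over the 7 genes with at least 20 reads in LD they were -0.03, -1.60, -0.80 and -2.69, beside -0.10, -0.49, -0.67 and -0.69 for all such genes. HMOX1, haem oxygenase, was close to MT2A in level at low density, with 1396, 1461, 1435 and 1157 TPM, and had 90.6 TPM in HD, a difference of -3.93 from LD. In RM the direction for HMOX1 depended on the scale, from -0.27 by TPM to 0.48 with median-ratio scaling. TXN, thioredoxin, had 204 TPM in LD, 66.6 with IL-8 and 90.4 in RM. NQO1, a quinone reductase, had 225 TPM in LD, 120.2, 148 and 129 TPM in the interleukin libraries and 30.8 TPM in HD. SRXN1, sulfiredoxin, had 32.8 TPM in LD and 53.0 after IL-6, but 9.35 with IL-8 and 10.5 in RM, and no read in HD. TXN and SRXN1, the 2 counted as lower in RM by TPM (-1.16 and -1.55), were at -0.42 and -0.87 with median-ratio scaling. With IL-8 they stayed past the limit on that scale, at -1.13 and -1.31. NQO1 was then at -0.92 after IL-6, -0.12 with IL-8 and -0.05 in RM. HMOX1, TXN, NQO1 and SRXN1 were thus each lowest in HD, as MT2A, MT1E and MT1X were. The 3 genes of the list counted as higher in HD went the other way, and were named after their values were seen. They were GCLC, GCLM and SLC7A11, each highest in HD by TPM, at 1.91, 1.36 and 1.06 log2 units above LD. GCLC had only 7 reads in LD and 6 in HD. By CPM GCLM and SLC7A11 were 0.75 and 0.47 above LD, and with median-ratio scaling 0.95 and 0.68, all within the limit.

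The other known inducers of metallothioneins were read out in a pair of further lists. Of 10 genes of the IL-6 and STAT3 response, 2 were higher and none lower after IL-6, 1 was higher and 3 lower with IL-8, the counts in RM were the same, and 2 were higher and 3 lower in HD. In either direction this is 2, 4, 4 and 5 of 10, beside 17.3, 24.4, 26.8 and 79.7% of all genes. Their median differences were 0.15, -0.48, -0.09 and -0.08 log2 units, and over the 6 with at least 20 reads in LD they were -0.26, -0.97, -1.09 and -0.69, beside -0.10, -0.49, -0.67 and -0.69 for all such genes. SOCS3, the feedback inhibitor induced by STAT3, had 23, 19, 7, 79 and 3 reads. This gave 6.05, 7.29, 2.47, 24.8 and 7.07 TPM, so SOCS3 was highest in RM, 1.87 log2 units above LD. MT1E and MT2A were highest there as well, and any link between these genes was not tested. The 2 genes counted as higher after IL-6 were BCL3 and CEBPD, an acute-phase transcription factor, both singled out after their values were seen. BCL3 had 3, 8, 18, 8 and 1 reads, and was also the gene counted as higher with IL-8. Its differences from LD were 1.36 after IL-6, 2.27 with IL-8 and 0.85 in RM. CEBPD had 1, 50, 1, 1 and 0 reads, so its 43.8 TPM after IL-6 stood alone, in the library where MT2A was level with LD. STAT3 itself had 72.3, 39.3, 18.8, 30.7 and 5.52 TPM, the HD value on 7 reads. Its direction in RM moved from -1.21 by TPM to 0.09 with median-ratio scaling. IL6ST, the signalling receptor subunit for IL-6, likewise moved from -1.86 to 0.25 in RM. The 2 genes counted as higher in HD were IL6R, the IL-6 receptor, and JAK2, both named after their values were seen. IL6R had 9, 5, 9, 8 and 84 reads, and was 5.68 log2 units above LD in HD. JAK2 had 1 read in LD and 2 in HD, with a difference of 1.24. JUNB, an AP-1 subunit, had 237 TPM in LD and 120.1 TPM in RM, and CEBPB, a transcription factor of the acute phase, had 22.0 and 4.28 TPM. In RM JUNB moved from -0.97 by TPM to -0.22 with median-ratio scaling, and CEBPB from -2.12 to -1.53. In HD JUNB differed from LD by -4.84 log2 units, on 4 reads.

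Of 6 genes of the glucocorticoid response, 1 was lower after IL-6, 1 was higher and 1 lower with IL-8, 2 were lower in RM, and in HD 3 were higher and 3 lower. In either direction this is 1, 2, 2 and 6 of 6, beside 17.3, 24.4, 26.8 and 79.7% of all genes. The median differences were -0.40, 0.03, -0.76 and 0.19 log2 units, and over the 4 with at least 20 reads in LD they were -0.33, -0.56, -1.02 and -1.28, beside -0.10, -0.49, -0.67 and -0.69 for all such genes. TSC22D3, a glucocorticoid-induced leucine zipper gene, had 89, 2, 2, 2 and 3 reads. It differed from LD by -4.03, -4.01 and -4.20 log2 units in the interleukin libraries and by -2.78 in HD, which had no added cytokine. LD thus stood apart from all other libraries for TSC22D3. MT2A differed from LD by -0.04, -0.01, 0.15 and -0.76 in the same order, and any link between the 2 genes was not tested. NR3C1, the glucocorticoid receptor, had 22.2 TPM in LD and 11.1 TPM in RM, but its direction in RM flips with median-ratio scaling (0.14). PER1, a clock gene, had 56, 28, 29, 30 and 3 reads, or 16.0, 14.8, 21.5, 6.92 and 4.86 TPM. Its difference from LD in RM was -1.10 by TPM but -0.10 with median-ratio scaling. SGK1, a kinase, had 36, 31, 13, 21 and 26 reads, and was 1.69 log2 units above LD in HD. FKBP5 and DUSP1 were also counted as higher in HD, and were named after their values were seen. FKBP5 was the gene counted as higher with IL-8 as well. It had 11, 7, 40, 6 and 37 reads, and was 2.08 log2 units above LD with IL-8 and 3.03 in HD. DUSP1 had 4 reads in LD and 3 in HD, with a difference of 1.39.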

How the data were processed

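RNA-seq of 5 libraries, 1 per condition, was analysed. The authors aligned the reads with Bowtie2 2.3.1 and quantified genes with RSEM 1.2.25, versions that come from the submitters' processing notes, which also name GRCh37. The annotation and filters are not given in the sources used here. The authors deposited an estimated count of reads per gene, as RSEM gives it, in whole numbers that may have been rounded up. The authors also deposited a TPM value per gene. Deposited TPM values summed to 934821 to 978521 per library and were rescaled to 1000000. Totals were 926376 to 7118545 reads. mRNA had been selected with oligo-dT and the cDNA amplified with phi29 polymerase, so intervals on reads are too narrow for the steps before sequencing.

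Differences were taken as log2(TPM + 1) over genes that reached 1 TPM in any library, and counted at 1 log2 unit. Read shares were taken over reads outside RNA5-8S5. Intervals are 95%: Poisson for a count, Clopper-Pearson for a share, conditional exact for a ratio. With 1 library per group no test between conditions was made. Settings that were varied were scaling, pseudocount, threshold and filter. The computation was tested on simulated data. The members and lists were chosen with earlier results of these data known. Named are all 8 members, from each list up to 4 genes with the most reads in LD among those with at least 20 reads there and a difference past 1 log2 unit, with MTF1, SLC30A1, SLC39A14, STAT3 and SOCS3 always, and the 5 nearest patterns, of which 1 is not reported here. Listed genes named beyond this rule were chosen after their values were seen. Promoter sequences and gene order are from RefSeq (GRCh38.p14), which had 3 of the 8 promoters. Gene positions on the authors' build were not used here. Python 3.11.15, numpy 2.4.6, pandas 2.3.3 and scipy 1.17.1 were used.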

Additional observations from a re-analysis of the deposited data

How the results depend on the processing

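Among 78 recomputed values for the family sum and the counts of members, 60 stayed within the interval of the reported value or within 1.5 times the reported count, and 18 moved. Of these values and the members' own, none past 1 log2 unit changed sign. The count between HD and LD went from 2 to 3 with CPM and with median-ratio scaling, as MT2A passed the limit (-1.42 and -1.21). The single member counted between IL-6 and LD, and the single one counted between RM and IL-6, is MT1M on 1 read, and both counts became 0 with a pseudocount of 5, a threshold of 2 log2 units or a filter of 10 reads in 1 library of the comparison. The count between IL-6 and LD was also 0 with CPM and with median-ratio scaling, the 1 member counted between RM and IL-6 was then MT1E, and the count between RM and LD became 1 (MT1E) with median-ratio scaling. With CPM in place of TPM, the log2 difference of the summed family became 0.080 for IL-8 against LD, 0.44 for RM against LD, -2.24 for HD against LD and 0.69 for RM against IL-6. With median-ratio scaling it became 0.42, 1.04, -2.03 and 1.35 in the same order, and 0.61 for RM against IL-8. The IL-8 sum therefore has no settled direction, and the RM sum is higher than LD under every scaling but past 1 log2 unit under only 1 of them. Both scalings start from read counts, and which suits these libraries was not tested. Depth limits HD most, where MT1E rests on 20 reads and MT1X on 2. No paired analysis was possible because each condition has 1 library.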
